A study of Mus musculus with 8 samples.

Results

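The ephrin-A ligands and their EphA receptors were described in the embryonic genital tubercle, from which the penis and the clitoris develop. The members were the 5 ligand genes Efna1 to Efna5 and the 5 receptor genes Epha2, Epha3, Epha4, Epha5 and Epha7, and every probe set that the platform annotation assigned to 1 of these genes alone was taken. These were 10 of 18194 genes named by a probe set of their own, and they had 27 probe sets among 45101 on the array, 9 for the ligands and 18 for the receptors. The samples were 4 male and 4 female embryos of the FVB/N strain at 14 dpc (Theiler stage 22), with no treatment or engineered allele named in the labels. Each sample was the microdissected tubercle region, not pooled, read on 1 Affymetrix MOE430 array after 2 rounds of RNA amplification. The labels do not say whether embryos share a litter or a hybridization day, so each p-value reflects how far these arrays scatter, and that scatter may be technical in part.

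Ephrin-A ligands are small proteins held on the cell surface by a lipid anchor, and EphA receptors are receptor tyrosine kinases on neighbouring cells. Contact between them signals into both cells and commonly makes cells or axons repel each other, which sorts cells into compartments and steers growing nerves and vessels. In mouse, Epha7 is known as a direct target of the Hoxa13 and Hoxd13 transcription factors in the developing limb.

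A probe set is a group of short probes against 1 transcript region, and its value is a linear intensity that the authors scaled to the same trimmed mean on every array. Intensities of different probe sets cannot be ranked against each other, so levels are compared only between arrays. A difference is the male mean minus the female mean of log2(intensity + 16), a scale that understates the change of dim probe sets. It stands with its SE, the standard error from a limma fit over all 22519 tested probe sets. A probe set was tested if its mean log2 value over the 8 arrays was at least 7.77, the median over the array, and it passed at a Benjamini-Hochberg adjusted p under 0.05. Group means are given ± SD, with n = 4 for each sex.

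The labels and tissue were checked first. The Y-linked genes Eif2s3y, Uty and Kdm5d read 1012 to 6136 on the male arrays at their brightest probe sets, against 5.89 to 88.1 on the female arrays, a level these genes read without their transcript. Xist, the noncoding RNA of the inactive X chromosome, read 344, 230, 16036 and 620 on male replicates 1 to 4, against 32465, 35102, 34954 and 35816 on the female arrays. Male replicate 3 thus carried Xist signal together with Y-linked signal at the male level. The tubercle factors Hoxd13 and Isl1 were bright in both sexes and lower in males at their brightest probe sets. Hoxd13 read 29770 ± 1276 in males and 36381 ± 1956 in females, at -0.29 on the log2 scale (limma adjusted p = 0.00258). Isl1 read 26832 ± 1235 in males and 33690.1 ± 2714 in females, at -0.33 (limma adjusted p = 0.00294). The 18S ribosomal RNA control read 26740 ± 5680 in males and 13210 ± 4450 in females (p = 0.0286 in a two-sided exact permutation test, which for 4 against 4 arrays can go no lower, and 0.0286 adjusted over 2 measures), and it was highest on male replicates 1 and 3. The other measure, the median log2 value of an array, was 7.94 ± 0.12 in males and 7.72 ± 0.07 in females (two-sided exact permutation test, p = 0.0286), so the middle of the intensity range lay higher on the male arrays after the authors' scaling. Arrays correlated at 0.966 to 0.985 within a sex and at 0.904 to 0.952 between the sexes.

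Of the 27 member probe sets, 25 were tested and 12 passed, 10 higher and 2 lower in males. Over the whole array 40.5% of the tested probe sets passed, 18.7% higher and 21.9% lower in males. Among the 25 tested were 3 receptor probe sets, Epha3 1425574_at and 1426057_a_at and Epha4 1456863_at, that reached the filter level through the male arrays, so their direction was set by the filter. With the filter applied in each sex, which leaves them out, 10 of 22 passed, 8 higher and 2 lower, beside 40.4% of all probe sets so filtered. In the full count the receptors accounted for 9 of the 10 that were higher, with 0 of their 18 probe sets lower in males, and the ligands gave 1 higher and 2 lower of 7 tested. The members' median difference was 0.42, with 0.56 for the receptors and -0.13 for the ligands, beside -0.01 over all tested probe sets. The member and receptor medians include the 3 receptor probe sets whose direction was set by the filter (0.93, 1.26 and 0.81), all above these medians. The sexes did not overlap on 11 of the 25 tested probe sets, 8 receptor probe sets above and 3 ligand probe sets below in males, beside 37.1% of all tested probe sets (15.8% above and 21.2% below). The 8 above include Epha3 1426057_a_at, whose direction was set by the filter. Probe sets of 1 gene share its transcripts, so these are not 25 independent genes. Counted by the brightest tested probe set of each gene, 2 of 10 genes were higher in males (Efna5 and Epha7) and 2 lower (Efna1 and Efna2), beside 14% higher and 28.2% lower over 11489 genes, a passing share near the 42.2% of all genes. Epha3, Epha4 and Epha5 were thus called only on probe sets dimmer than their brightest. With a gene taken as the average over its probe sets, Epha3 (0.82 ± 0.12, limma adjusted p = 0.000178) and Epha4 (0.71 ± 0.18, limma adjusted p = 0.00595) passed beside Efna5, Epha7 and Efna1, and Efna2 did not (limma adjusted p = 0.0687), where 43.1% of all genes passed. With the filter applied in each sex these averages were 0.55 ± 0.08 for Epha3 (limma adjusted p = 0.00019) and 0.68 ± 0.16 for Epha4 (limma adjusted p = 0.00416). In bulk tissue, fewer cells that make a transcript and less transcript per cell cannot be told apart.

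**Figure D1:**
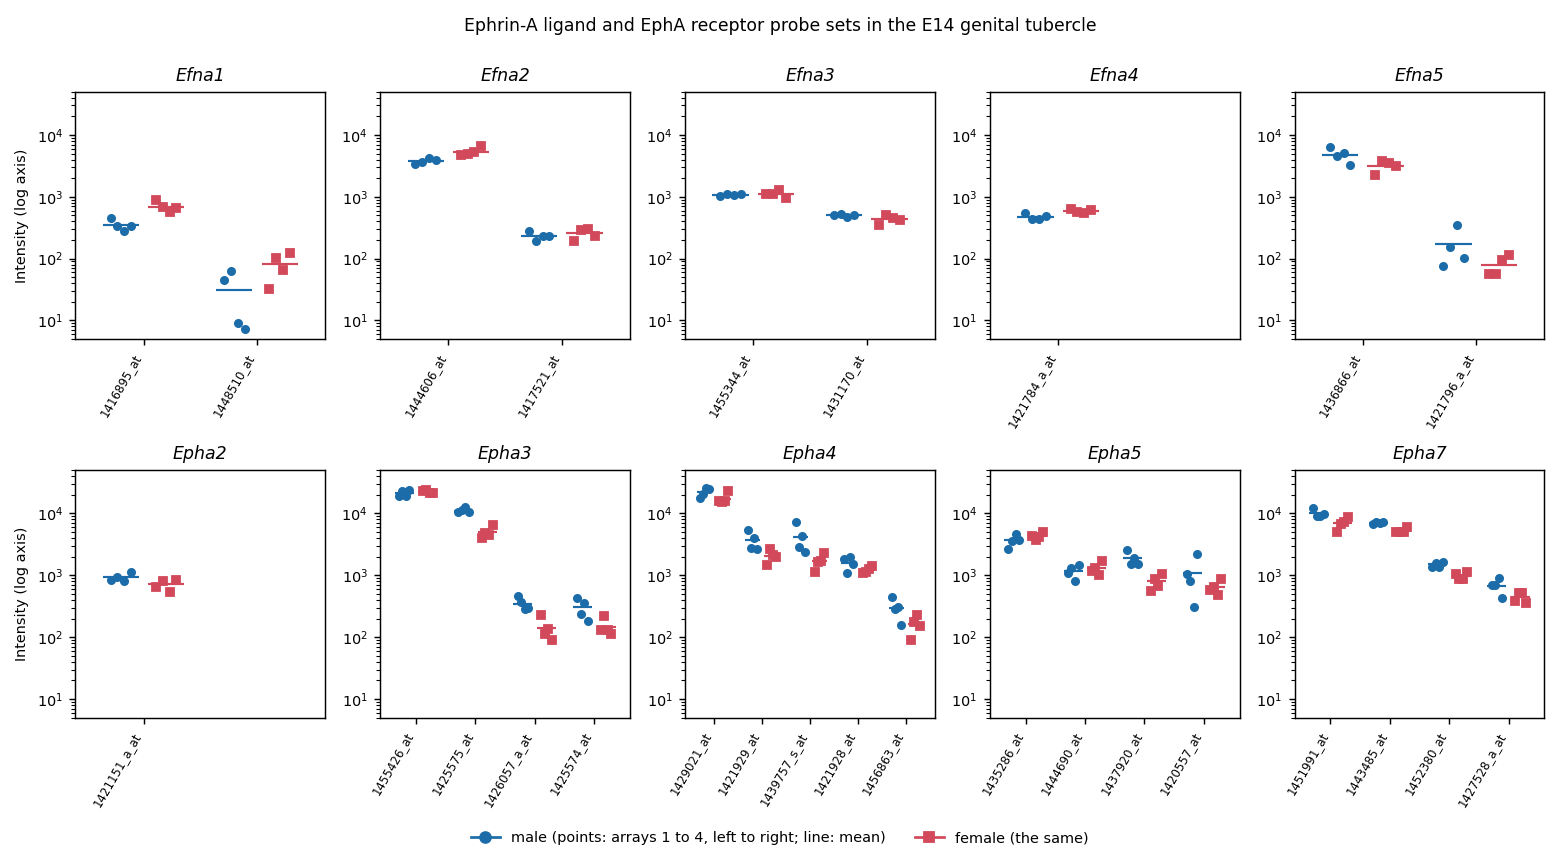
Intensity of every member probe set (log axis) on the 4 male arrays (circles) and the 4 female arrays (squares), with a line at each group mean; probe sets of a gene run from brightest to dimmest. The 3 brighter Epha7 probe sets and the Epha3 probe set 1425575_at sit higher on every male array than on any female array, and the brighter Efna1 probe set sits lower on every male array.

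Without male replicate 3, 11 of 23 tested member probe sets passed, 9 higher and 2 lower in males, beside 33.5% of all tested probe sets. Without both male replicates 1 and 3, 8 of 22 passed, 6 higher and 2 lower in males, beside 35.4% of all. With the 18S level as a covariate in the fit, 0 of the 25 passed (limma adjusted p), 5 had an unadjusted p under 0.05, and 1.84% of all tested probe sets passed. The 18S level and sex were closely tied in these 8 arrays, and the part of RNA quality or amplification in the differences was not tested.

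Among the ligands, Efna1 and Efna2 were the members that were lower in males. Efna1 encodes ephrin-A1, a ligand of EphA2 that is known from vessels and epithelia. Its brighter probe set, 1416895_at, read 446, 341, 284 and 343 on male replicates 1 to 4, against 875, 687, 558 and 649 on female replicates 1 to 4. Every male array lay below every female array. The means were 353 ± 67.6 in males and 692 ± 133 in females, a difference of -0.94 ± 0.20 (SE, limma adjusted p = 0.00315), and the call held with any 1 array left out. Every male array lay below every female array in 21.2% of all tested probe sets. The other Efna1 probe set, 1448510_at, read 45.7, 64.3, 9.26 and 7.18 on the male arrays and 32.6, 102, 65.6 and 122 on the female arrays. It overlapped the level that Y-linked genes read in females and was not tested.

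Efna2 encodes ephrin-A2, a repellent of retinal axons in the midbrain. Its brighter probe set, 1444606_at, read 3391, 3677, 4261 and 3894 on the male arrays, against 4731, 4946, 5325 and 6513 on the female arrays. The groups did not overlap, and the difference was -0.49 ± 0.12 (SE, limma adjusted p = 0.00741), with the male mean 0.71 times the female one. The other Efna2 probe set, 1417521_at, read 275, 189, 228 and 235 in males and 193, 291, 305 and 235 in females. These ranges overlapped and the difference of -0.12 ± 0.22 did not pass (limma adjusted p = 0.676).

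Efna5 encodes ephrin-A5, another axon repellent that binds most EphA receptors, and it was the ligand that rose in males. Its brighter probe set, 1436866_at, read 6432, 4508, 5028 and 3301 on male replicates 1 to 4, against 2255, 3741, 3503 and 3120.4 on female replicates 1 to 4. Male replicate 4 lay below 2 female arrays, so the groups overlapped. The difference was 0.59 ± 0.20 (SE, limma adjusted p = 0.0324). The call ended without any 1 of 5 arrays, male replicates 1, 2 and 3 and female replicates 1 and 4, with limma adjusted p up to 0.0961 without female replicate 1. Without male replicates 1 and 3, the arrays with the highest 18S level, it was 0.31 (limma adjusted p = 0.26), and with the 18S covariate -0.12 (limma adjusted p = 0.838). The dimmer Efna5 probe set, 1421796_a_at, read 75.6, 153, 353 and 102 on the male arrays and 56.2, 56.5, 95.6 and 113 on the female arrays, with overlap, and was not tested.

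Efna3 and Efna4 encode ephrin-A3 and ephrin-A4, and their genes lie beside Efna1 on chromosome 3 with only noncoding genes between them in the reference annotation. Neither gene passed on any of its probe sets. Efna4 read 543, 445, 431 and 485 on the male arrays, against 629, 568, 554 and 606 on the female arrays. Every male value was below every female value, but the difference of -0.30 ± 0.16 did not pass (limma adjusted p = 0.149). The brighter Efna3 probe set, 1455344_at, had means of 1076 ± 23.8 in males and 1109 ± 122 in females, a difference of -0.04 ± 0.14 (limma adjusted p = 0.85). The dimmer one, 1431170_at, differed by 0.21 ± 0.17 (limma adjusted p = 0.356), with overlapping ranges on both.

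Epha7 passed on its 3 brighter probe sets, all higher in males. Epha7 encodes a receptor with full-length and truncated forms, known in mouse for neural tube closure. Its brightest probe set, 1451991_at, read 12138, 9189, 9254 and 9834 on male replicates 1 to 4, against 4937, 6838, 7193 and 8916 on female replicates 1 to 4. The groups did not overlap, and the difference was 0.56 ± 0.16 (SE, limma adjusted p = 0.0143). The next, 1443485_at, read 6661, 7414, 6992 and 7193 in males, against 5031, 5057, 5076 and 6016 in females. The groups again did not overlap, at 0.42 ± 0.09 (SE, limma adjusted p = 0.00424). The third probe set, 1452380_at, read 1374, 1607, 1384 and 1639 in males, against 1064, 863, 880.1 and 1153 in females. It was likewise higher on every male array, at 0.60 ± 0.15 (SE, limma adjusted p = 0.00726). The dimmest, 1427528_a_at, lay in the same direction without passing (0.57 ± 0.23, limma adjusted p = 0.071) and passed without male replicate 4 (0.77, limma adjusted p = 0.0156). The 3 calls held with any 1 array left out, and the brightest missed the threshold without male replicates 1 and 3 (0.48, limma adjusted p = 0.0714). With the 18S covariate the Epha7 probe sets, from brightest to dimmest, were at 0.19, 0.42, 0.85 and 0.00, and none passed (limma adjusted p from 0.101 to 0.997). As the mean of its 4 probe sets, Epha7 differed by 0.54 ± 0.10 (SE, limma adjusted p = 0.00125).

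Epha3 encodes a receptor for ephrin-A5 that is needed for heart valve formation in mouse, and its probe sets did not give 1 picture. The second brightest, 1425575_at, read 10486, 11202, 12525 and 10421 on male replicates 1 to 4, against 4011, 4755, 4547 and 6555 on female replicates 1 to 4. The groups were far apart, with means of 11158 ± 977 in males and 4967 ± 1104 in females and a difference of 1.19 ± 0.14 (SE, limma adjusted p = 0.000108), the smallest p of the family. The brightest, 1455426_at, read 19286, 23493, 19419 and 23672 in males and 23126, 24117, 21242 and 21825 in females. These ranges overlapped and the difference was -0.08 ± 0.08 (SE, limma adjusted p = 0.484). The 2 dim probe sets rose: 1426057_a_at read 460.5, 366, 284 and 292 in males, against 232, 114, 134 and 90.8 in females, and differed by 1.26 ± 0.28 (limma adjusted p = 0.00425). The dim probe set 1425574_at read 436, 237, 362 and 180.1 in males, against 130.4, 218, 131 and 113 in females, and differed by 0.93 ± 0.30 (limma adjusted p = 0.0267). That last call was not made without any 1 of female replicates 1, 3 and 4, with limma adjusted p up to 0.0673 without female replicate 4. On both dim probe sets 3 of the 4 female values lay below the filter level, so they passed the filter largely through the male arrays and were bound to differ. Leaving out male replicates 1 and 3 gave 1.14 for 1425575_at (limma adjusted p = 0.000923), and the 18S covariate 0.88 (limma adjusted p = 0.0631).

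Epha4 encodes a receptor that binds both ephrin-A and ephrin-B ligands and steers motor axons into the limb. All 5 of its probe sets had a higher male mean, and 2 passed. The probe set 1421929_at read 5475, 2744, 3981 and 2681 on male replicates 1 to 4, against 1489, 2665, 2110.1 and 2012 on female replicates 1 to 4, and 1439757_s_at read 7235, 2889.6, 4299 and 2391 in males, against 1147, 1664, 1711 and 2270.4 in females. Neither overlapped, and in both the highest male values were on replicates 1 and 3. The differences were 0.81 ± 0.23 (SE, limma adjusted p = 0.015) and 1.21 ± 0.30 (SE, limma adjusted p = 0.00748). On these probe sets male replicates 1 and 3 lay 0.78 and 1.08 above male replicates 2 and 4 on the log2 scale. Without male replicates 1 and 3, 1421929_at was 0.42 (limma adjusted p = 0.13) and 1439757_s_at 0.67 (limma adjusted p = 0.047), and with the 18S covariate 1421929_at was -0.05 (limma adjusted p = 0.94) and 1439757_s_at 0.32 (limma adjusted p = 0.724). The suffix of 1439757_s_at marks probes that can match transcripts of other genes.

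The brightest Epha4 probe set, 1429021_at, read 17519, 20478, 25974 and 25169 on the male arrays, against 15754, 15394, 15716 and 22731 on the female arrays. Female replicate 4 was the only female array that reached the male range, and the difference of 0.36 ± 0.14 missed the threshold (limma adjusted p = 0.064). It passed without female replicate 4 (0.49, limma adjusted p = 0.0093) and without male replicate 1 (0.47, limma adjusted p = 0.0177). The remaining Epha4 probe sets, 1421928_at and 1456863_at, differed by 0.35 ± 0.19 and 0.81 ± 0.33 and did not pass (limma adjusted p = 0.15 and 0.0663), and 3 of the 4 female values of 1456863_at lay below the filter level. The probe set 1421928_at passed without male replicate 2 (0.52, limma adjusted p = 0.0278) and 1456863_at without male replicate 4 (1.07, limma adjusted p = 0.0169) or female replicate 3 (0.98, limma adjusted p = 0.0486).

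Epha5 encodes a receptor of the nervous system that takes part in axon guidance, and 1 of its 4 probe sets rose. That one, 1437920_at, read 2596, 1499.8, 1910.5 and 1548 on male replicates 1 to 4, against 567, 886, 678 and 1053 on female replicates 1 to 4. The groups did not overlap, and the difference was 1.23 ± 0.22 (SE, limma adjusted p = 0.00121). With the 18S covariate it was 0.53 (limma adjusted p = 0.375). The brightest Epha5 probe set, 1435286_at, read 2709, 3647, 4595 and 3782 in males and 4338, 3696, 4159.7 and 5095 in females. It leaned the other way with overlapping ranges, at -0.24 ± 0.16 (limma adjusted p = 0.228). The other 2 overlapped as well: 1444690_at differed by -0.15 ± 0.21 (limma adjusted p = 0.608) and 1420557_at by 0.47 ± 0.45 (limma adjusted p = 0.418). The last varied widely among males, with 1064, 799.8, 308 and 2241 on male replicates 1 to 4, and it rested on single arrays: it passed without male replicate 3 (0.96, limma adjusted p = 0.0396) and was 0.03 without male replicate 4 (limma adjusted p = 0.958).

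Epha2, a receptor of epithelia and tumour cells that binds ephrin-A1, had 1 probe set. It read 843, 954, 819.9 and 1129 on the male arrays and 642, 817, 548 and 852 on the female arrays. The ranges overlapped and the difference of 0.39 ± 0.18 did not pass (limma adjusted p = 0.105).

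**Figure D2:**
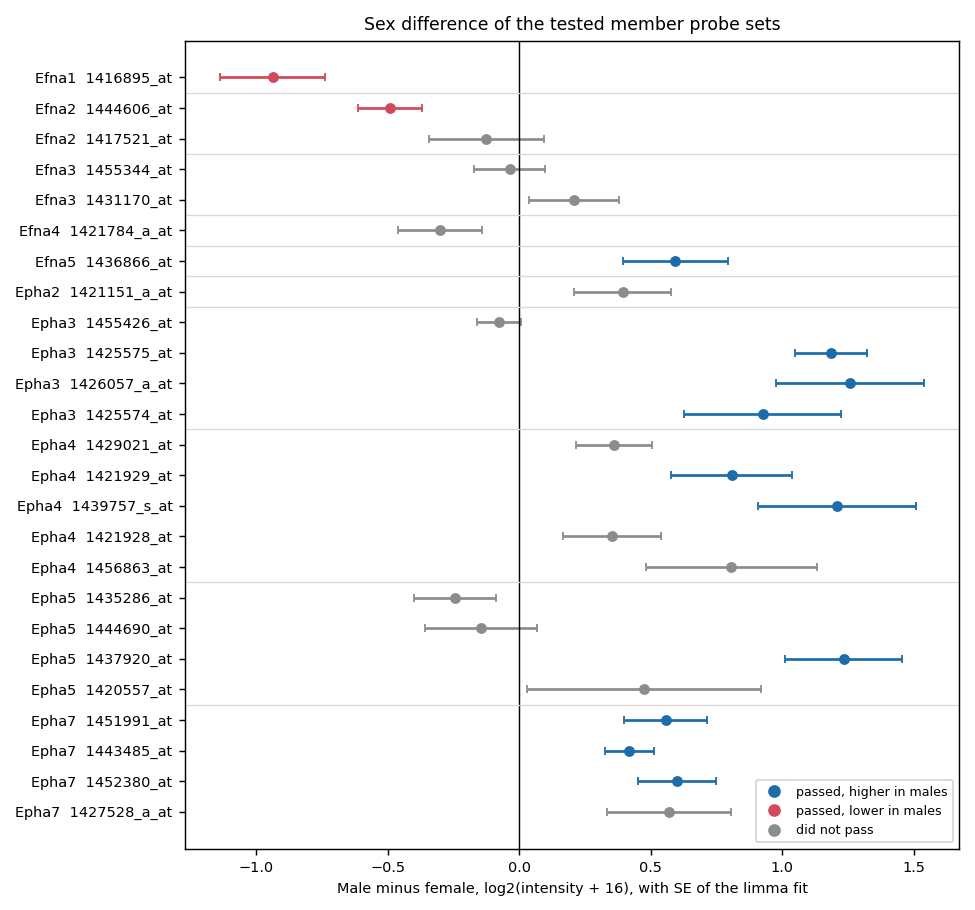
Male minus female difference of the 25 tested member probe sets, as points with bars of 1 SE of the limma fit; colour marks those that passed in each direction. All passing receptor probe sets lie to the right of 0 and the 2 passing probe sets of Efna1 and Efna2 to the left. Of the receptor probe sets, Epha3 1425574_at and 1426057_a_at passed the filter through the male arrays, which set their side.

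Whether probe sets of a gene differed in their sex difference was tested on the log2 ratio of each dimmer probe set to the brightest of its gene within each array, in 15 pairs. None of the 15 passed after adjustment, and 3 had an unadjusted p under 0.05 (two-sided exact permutation test, p = 0.0286, which can go no lower here, and 0.143 adjusted). After adjustment this lowest p could pass only if most of the 15 pairs reached it, so the adjusted count says little. Over the whole array 62.7% of 8109 such pairs had the more male difference on the dimmer probe set, with a median of 0.16 and 11.3% over 1, beside 13 of 15 member pairs with a median of 0.45 and 4 over 1. With the filter applied in each sex the shares were 61.6% of 7434 pairs, with a median of 0.14 and 9.36% over 1. Of the member pairs so filtered it was 10 of 12, with a median of 0.3 and 2 over 1. The 3 pairs were Epha3 1425575_at, with a log2 ratio of -0.94 ± 0.24 in males and -2.20 ± 0.34 in females, Epha3 1426057_a_at, with -5.89 ± 0.39 in males and -7.23 ± 0.51 in females, and Epha5 1437920_at, with -0.97 ± 0.60 in males and -2.45 ± 0.38 in females (SD, n = 4 each). In each of these 3 pairs the ratios of the sexes did not overlap, and that of 1426057_a_at was set in direction by the filter. The Epha7 pairs differed between the sexes by -0.14 to 0.04. Which transcript forms these probe sets read was not analysed here.

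**Figure D3:**
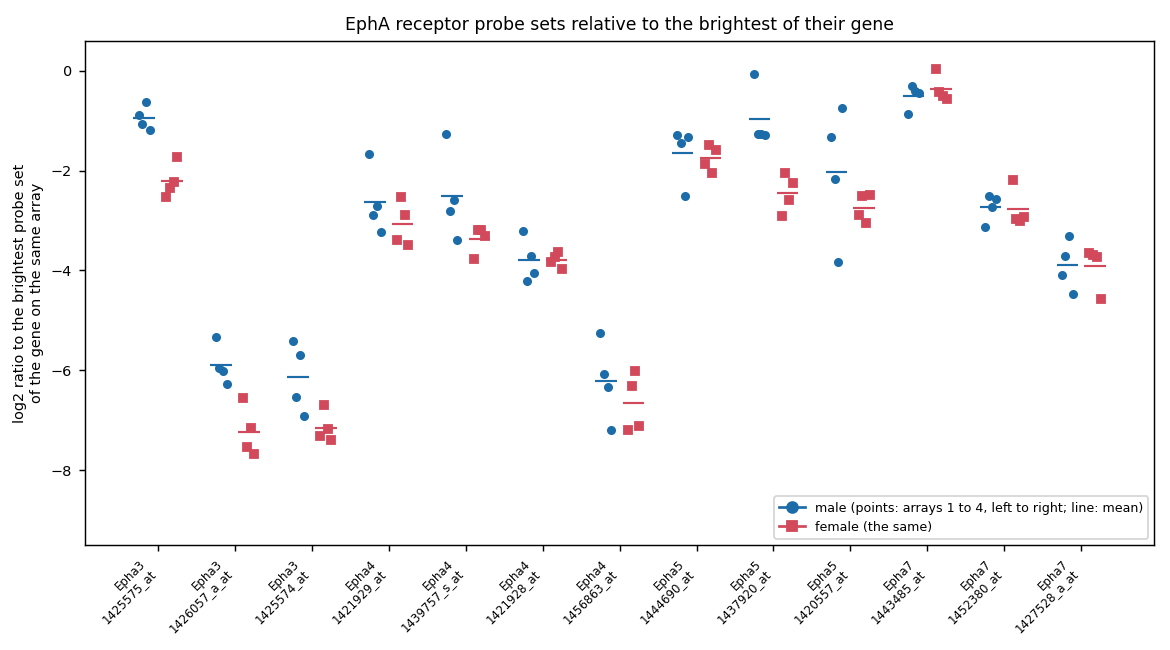
Log2 ratio of each dimmer EphA probe set to the brightest probe set of its gene on the same array, for male arrays (circles) and female arrays (squares), with lines at the means. The sexes separate for 2 Epha3 probe sets, of which 1426057_a_at passed the filter through the male arrays, and for Epha5 1437920_at and overlap for every Epha4 and Epha7 probe set.

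Promoter sequences were read for all 10 members, which matched the RefSeq table for the GRCm38.p6 build by symbol. Each window runs from 250 bases before to 50 after a transcript start, on the gene's strand. Efna1, Efna3 and Epha7 have 2 windows each in the table, and the one listed first was used. The windows are shown for the receptors with at least 2 passing probe sets and for the 2 ligands that were lower in males. Capitals mark a GC box (GGGCGG) or a CCAAT box, on either strand.
Epha3 chr16:63864126-63864425 (minus strand): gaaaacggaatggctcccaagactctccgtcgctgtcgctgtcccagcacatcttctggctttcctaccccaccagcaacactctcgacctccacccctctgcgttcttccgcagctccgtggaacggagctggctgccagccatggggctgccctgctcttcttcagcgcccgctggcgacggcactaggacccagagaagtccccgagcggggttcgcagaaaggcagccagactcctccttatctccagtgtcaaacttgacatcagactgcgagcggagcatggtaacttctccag
Epha4 chr1:77515039-77515338 (minus strand): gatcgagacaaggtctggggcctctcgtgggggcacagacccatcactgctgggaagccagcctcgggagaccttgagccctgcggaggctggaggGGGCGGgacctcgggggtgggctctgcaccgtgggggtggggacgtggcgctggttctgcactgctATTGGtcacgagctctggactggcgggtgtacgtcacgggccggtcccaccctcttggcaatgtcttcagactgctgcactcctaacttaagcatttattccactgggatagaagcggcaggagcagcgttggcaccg
Epha7 chr4:28812881-28813180 (plus strand): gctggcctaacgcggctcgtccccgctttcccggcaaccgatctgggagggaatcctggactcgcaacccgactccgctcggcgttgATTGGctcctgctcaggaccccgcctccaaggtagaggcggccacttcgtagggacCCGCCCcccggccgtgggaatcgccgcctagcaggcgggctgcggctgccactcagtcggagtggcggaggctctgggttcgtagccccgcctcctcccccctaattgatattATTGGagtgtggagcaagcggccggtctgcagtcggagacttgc
Efna1 chr3:89280902-89281201 (minus strand): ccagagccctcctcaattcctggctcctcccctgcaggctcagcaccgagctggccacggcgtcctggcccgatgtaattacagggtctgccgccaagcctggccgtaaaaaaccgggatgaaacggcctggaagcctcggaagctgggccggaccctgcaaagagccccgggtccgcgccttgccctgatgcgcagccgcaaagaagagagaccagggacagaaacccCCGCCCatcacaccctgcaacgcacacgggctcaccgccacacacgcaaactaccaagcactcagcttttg
Efna2 chr10:80179232-80179531 (plus strand): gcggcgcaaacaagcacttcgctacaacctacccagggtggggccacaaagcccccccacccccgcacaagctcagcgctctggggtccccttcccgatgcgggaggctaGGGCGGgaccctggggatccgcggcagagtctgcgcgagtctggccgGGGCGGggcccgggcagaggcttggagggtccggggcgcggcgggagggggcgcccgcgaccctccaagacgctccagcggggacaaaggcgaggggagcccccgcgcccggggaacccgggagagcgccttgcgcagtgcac

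The 10 windows used were rich in G and C, with 54.7% to 74.7% of their bases and 10 to 38 CpG dinucleotides, against a median of 52.7% and 7 over 32817 windows of the table. Of the receptors with a passing probe set, Epha4 and Epha7 each held a GC box and at least 1 CCAAT box, Epha5 held 2 GC boxes and no CCAAT box, and Epha3 held neither. Efna1 had 1 GC box and Efna2 had 2. GC boxes occurred in 35.6% and CCAAT boxes in 37.4% of all windows. A TATA box (TATAAA), the letters CAATAAA, which Hox proteins of the Hoxa13 and Hoxd13 type can bind, and AGAACA, a half-site of the androgen and glucocorticoid receptors, were also searched on both strands and matched in 0 of the 10 windows. They matched in 13.6%, 4.6% and 19% of all windows in that order. CAATAAA and CCAAT can overlap, and a missing match says only that these letters are not in the window.

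Of the genes that act with Eph receptors, 25 of 27 listed effectors were tested (Rock2 was not analysed here, and Ngef lay below the intensity filter). Of these 4 were higher and 9 lower in males and 12 did not pass, by the brightest probe set of each gene, beside 14% higher and 28.2% lower over all genes. The list's median difference was -0.02, beside -0.12 over all genes. Those that rose were Pik3r1, the regulatory subunit of phosphoinositide 3-kinase (1.33 ± 0.14, limma adjusted p = 5.86e-05), Vav2, a signalling protein recruited by Eph receptors (0.59 ± 0.14), Yes1, a Src family kinase (0.48 ± 0.17), and the adaptor Crk (0.33 ± 0.06). Among those that fell were Cbl, a ubiquitin ligase that takes down activated receptors (-1.29 ± 0.14, limma adjusted p = 9.44e-05), the kinases Abl1 (-1.11 ± 0.15) and Abl2 (-0.55 ± 0.14), and Inppl1, a phosphatase that binds EphA2 (-0.56 ± 0.13). Another Cbl probe set, 1455886_at, passed in the opposite direction (1.33 ± 0.42, limma adjusted p = 0.0247). The direction of the list depended on the probe sets used: with a gene taken as the average over its probe sets 11 were higher and 6 lower in males, beside 17.2% and 25.9% of all genes. The call of Yes1 ended without any 1 of 6 arrays, male replicates 2, 3 and 4 and female replicates 1, 2 and 3 (limma adjusted p up to 0.123).

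Adam10, the protease that cuts ephrin-A5 when it is bound by EphA3, passed on dimmer probe sets and not on its brightest. The brightest, 1428103_at, had 23083 ± 2170 in males and 21061 ± 1562 in females and did not pass (0.13 ± 0.08, limma adjusted p = 0.213). The next, 1450105_at, read 6435, 7173, 8790.1 and 6463 on the male arrays, against 1328, 2372, 2443 and 2058 on the female arrays. There the sexes did not overlap, at 1.83 ± 0.18 (limma adjusted p = 5.86e-05).

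By brightest probe set, the ephrin-B and EphB genes, the sister family, gave 0 higher and 2 lower of 7 tested genes. Over all genes 14% were higher and 28.2% lower. The median of the ephrin-B and EphB genes was -0.32, beside -0.12 over all genes, and Ephb2 was not analysed here. A dimmer Efnb2 probe set, 1419638_at, passed higher in males (0.58 ± 0.08, limma adjusted p = 0.000251). The brightest, 1419639_at, did not pass (-0.025 ± 0.096, limma adjusted p = 0.854). With a gene taken as the average over its probe sets, 1 was higher and 2 were lower, beside 17.2% and 25.9% of all genes. Ephb4, a receptor of veins, fell (-0.65 ± 0.18, limma adjusted p = 0.0118), as did Ephb6, which lacks kinase activity (-1.01 ± 0.22, limma adjusted p = 0.00357). On Ephb6 3 of the 4 male values lay below the filter level, so it was tested through the female arrays, and with the filter applied in each sex 1 of 6 genes passed. A difference between the families was not tested.

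Markers of other cell types moved with sex as well, and their part in the results above was not tested. All 6 skeletal muscle markers were higher in males, with a summed intensity of 10960 to 17700 on male arrays and 3357 to 8116 on female arrays. By brightest probe set, the tubercle markers gave 0 higher and 3 lower (Hoxd13, Isl1 and Shh) of 5 tested. Their sums were 99530 to 103200 in males and 111600 to 124900 in females. Over all genes, by brightest probe set, 14% were higher and 28.2% lower. The dimmer Isl1 probe set, 1422720_at, leaned the other way without passing (0.49 ± 0.19, limma adjusted p = 0.0594). Of the dimmer Wnt5a probe sets, 1448818_at (0.96 ± 0.30, limma adjusted p = 0.0214) and 1456976_at (0.84 ± 0.30, limma adjusted p = 0.0422) passed higher in males, and 1437673_at did not pass. Tbx5 1425695_at differed by 1.80 ± 0.74 without passing (limma adjusted p = 0.0699). Of 4 tested neuron markers 3 were higher and 0 lower, with sums of 4583 to 6715 in males and 3173 to 3982 in females. Of 4 tested endothelium markers 3 were higher and 1, Cdh5, was lower, with sums of 8026 to 10030 in males and 6090 to 7312 in females. Of 5 epithelium markers Trp63 was higher and Krt8 and Krt18 were lower, and of 4 mesenchyme markers Col1a1 was higher and Twist1 lower, with overlapping sums in both lists. A dimmer Col1a1 probe set, 1423669_at, passed in the opposite direction (-1.98 ± 0.29, limma adjusted p = 0.000393), with 3 of the 4 male values below the filter level. The Schwann cell marker Sox10 did not pass. The erythroid and macrophage lists each had 1 gene higher and 1 lower. The lower macrophage gene, Cd68, had a male mean below the filter level, so it was tested through the female arrays. The markers Tie1, Th, Foxd3, Aif1 and Hoxa13 lay below the intensity filter.

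**Figure D4:**
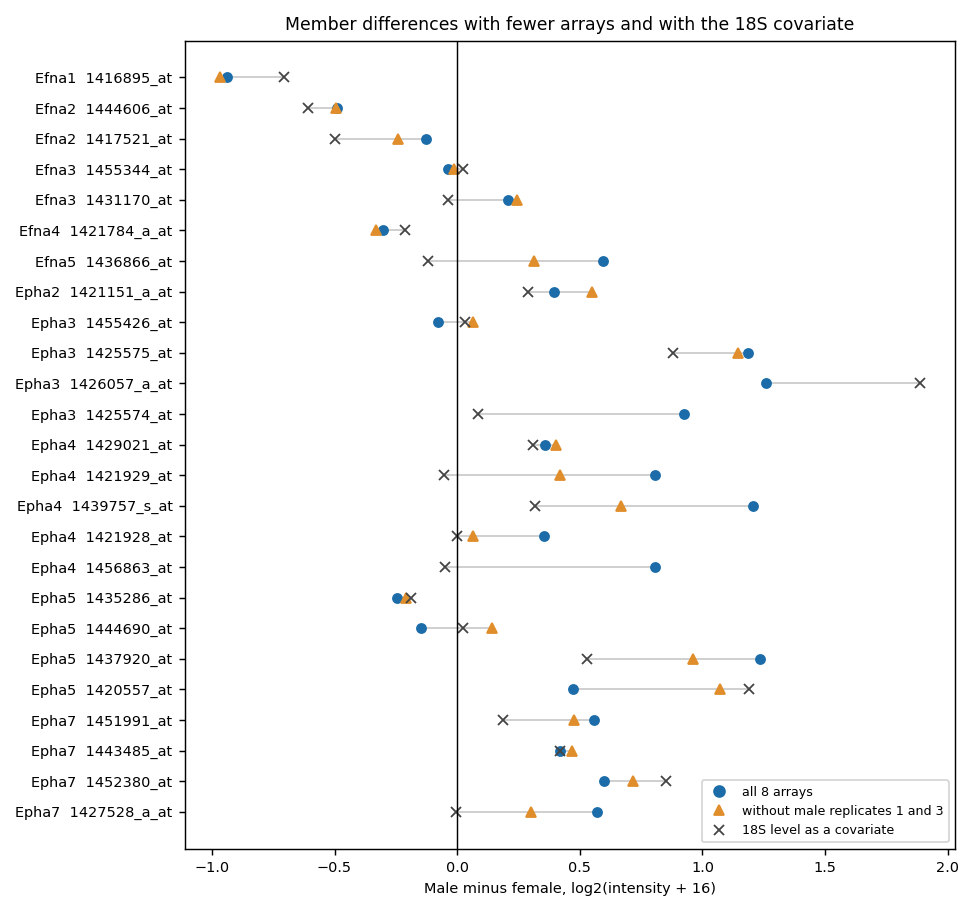
Male minus female difference of each tested member probe set with all 8 arrays (circles), without male replicates 1 and 3 (triangles, missing where the probe set fell below the filter) and with the 18S level as a covariate (crosses). Epha3 1425575_at and the Epha7 probe sets 1443485_at and 1452380_at stay right of 0 in all 3, and Efna5 and Epha4 1421929_at come to lie left of 0 with the covariate.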

How the data were processed

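RNA from the genital tubercle region of 4 male and 4 female embryos was measured on 1 array each. The deposited values are linear intensity values per probe set, made by the authors with Affymetrix GCOS (named in the submitters' processing notes without a version). In the deposited intensity values the mean after trimming 2% at each end was 1500 on every array, so they were not scaled again. No transcript build is named, and depth has no meaning for arrays, where the number of arrays limits the precision.

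Genes were named through the platform annotation, in which 34945 probe sets have 1 gene symbol, 932 several and 9160 none, beside 64 control probe sets. Values were taken as log2(intensity + 16), and probe sets with a mean of at least 7.77 were fitted with limma 3.58.1 in R 4.3.3 (sex as the only term, empirical Bayes with a mean-variance trend), with Benjamini-Hochberg adjustment over 22519 probe sets. A gene stood for its brightest tested probe set in counts of genes. The fit was tested on simulated data. All 10 members are described with every probe set. Of the effectors and of the ephrin-B and EphB genes, up to 4 called genes in each direction with the largest difference are named, plus Adam10. The filter in each sex was added after the data were seen. The second Cbl, Col1a1, Efnb2 and Isl1 probe sets and the dimmer Wnt5a probe sets were chosen after their values were seen. So were the markers named for their direction. The members and lists were chosen with earlier results of these data known. The alternatives changed the normalization, pseudocount, filter, variance model, covariates and arrays, and 0 columns of samples were left out.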

Additional observations from a re-analysis of the deposited data

Results flagged for a closer look

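Female replicate 4 lay far from the other 3 female arrays on 2 member probe sets. It read 22730 on the brightest Epha4 probe set, 1429021_at, where the other female arrays read 15390 to 15750. It read 6016 on Epha7 1443485_at, where the others read 5031 to 5076. Both values lay toward the male side. Of 62 groups of 4 arrays examined, these 2 stood out, and chance alone marks about 1 in 20 groups.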

How the results depend on the processing

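With 12 member probe sets passing in all, 8 to 13 passed under the other normalization, pseudocounts, filters, variance models and array weights and without both male replicates 1 and 3, and 10 to 14 with 1 array left out. The 18S covariate changed most: 0 member probe sets, 0 member genes (1 at an unadjusted limma p under 0.05), 1 effector, 0 ephrin-B and EphB genes (0 at an unadjusted limma p under 0.05) and 414 of all probe sets passed, and Efna5 1436866_at turned to -0.12 and Epha4 1421929_at to -0.053. The cause was not tested. Without male replicates 1 and 3, 2 member genes passed in place of 4. The filter in each sex, added after the data were seen, gave 10 member probe sets and 1 of 6 ephrin-B and EphB genes. The upper-quartile filter tested fewer probe sets and gave 5890 calls in place of 9128, and 0 of 4 tested ephrin-B and EphB genes (0 at an unadjusted limma p under 0.05). Leaving out 1 array gave 3 to 4 member genes, 10 to 13 effectors, 2 to 3 ephrin-B and EphB genes and 7358 to 9468 probe sets. Of the 12 passing member probe sets, 10 passed in every fit with 1 array left out that tested them, all but Efna5 1436866_at and Epha3 1425574_at. The 10 include Epha3 1426057_a_at, whose direction was set by the filter. The dim probe sets Epha3 1425574_at and 1426057_a_at and Epha4 1456863_at fell below the filter in some of these fits. The replicate block gave 13 member probe sets, 4 member genes, 12 effectors, 2 ephrin-B and EphB genes and 8460 probe sets. Same-numbered arrays correlated in their deviations at -0.13 to 0.04, so no effect shared by number was visible. Whether same-numbered embryos share a litter or day cannot be told from so few arrays. Under that block Efna5 missed the threshold (limma adjusted p = 0.0557), and Epha4 1429021_at (0.0241) and Epha7 1427528_a_at (0.0435) passed. The median difference of all tested probe sets stayed between -0.07 and 0.08. Signal limits the dim probe sets: 2 of 27 were not tested.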
